A study of Arabidopsis thaliana with 6 samples.

Results

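The Aurora kinases AUR1, AUR2 and AUR3, the kinesins KINESIN-13A and AT5G23910, and the replication genes PRL and ICU2 were followed on ATH1 oligonucleotide arrays of Arabidopsis thaliana, with AT5G23910 set against the other 6. The 7 genes were found by their names in the platform annotation, each had 1 probe set, and together they are 7 of the 22746 probe sets on the array that are not controls. They were chosen by their log2 differences between the genotypes in an earlier comparison of these arrays: AT5G23910 because it had been called lower in the mutant, and the others as cell division genes that had not been called. Those differences are therefore given as descriptions, with no test. The genotypes were compared in whole plants at growth stage 1.04, with 3 arrays of a line whose titles read atm, whose source name reads ATM1 and whose genotype reads AtATM3 mutant, and 3 arrays of the wild type, Col0. The labels name no accession for the mutant background and describe no clone, pooling or age beyond the growth stage. All plants were grown on sterile plates with mineral salts and sucrose under a short light period. The series is titled for transcripts that X-rays induce through ATM, yet no irradiation is stated for any sample, so genotype is the only comparison. Nothing in the labels says that replicates came from separate cultures, and the spread between them may be technical. In whole plants, fewer dividing cells and less RNA per dividing cell cannot be told apart.

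Aurora kinases are mitotic serine and threonine kinases. In Arabidopsis, AUR1 and AUR2 form the alpha group, found on the spindle and the forming cell plate, and AUR3 is the beta type, found at centromeres. Kinesins are motors that move along microtubules or take them apart. PRL (PROLIFERA) encodes MCM7, a subunit of the helicase that is loaded at replication origins, and ICU2 (INCURVATA2) encodes the catalytic subunit of DNA polymerase alpha, which starts new DNA strands. Transcripts of Aurora kinases and of replication genes such as PRL and ICU2 are concentrated in dividing cells of meristems and young organs. ATM is a protein kinase activated by breaks in both strands of DNA, and in plants its signalling can both hold back division and switch on damage response genes.

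The deposited values are MAS5 signals on a linear scale, whose medians lay between 40.01 and 41.3 on the 6 arrays. The 20th percentile of an array lay between 6.77 and 8.01 and the 40th between 24.7 and 26.0, and these serve below as marks of a dim signal because no detection calls were used here. Wild type replicate 1 and atm mutant replicate 2 stood apart from the other 4 arrays: their deviations from their genotype means correlated at 0.647 over the 13895 probe sets that passed a filter on dim signal (probe sets are not independent replicates), and their 25S ribosomal RNA control signals were 2123 on the mutant array and 836 on the wild type array, against 4106 to 5400 on the others. The leaf gene RCA (Rubisco activase) and the root gene PYK10 gave strong signals on all arrays, with means of 5174 ± 347 and 3344 ± 365 in the atm mutant and 4946 ± 1084 and 3170 ± 186 in the wild type (SD, n = 3 each). RCA had a log2 difference of 0.08 (SE 0.16) and PYK10 of 0.07 (SE 0.12), while EXPA7, the other tested root gene, had -0.18 (SE 0.30), none past the threshold. The stem cell gene CLV3 lay below the 20th percentile on every array, at 1.24 to 4.05 in the mutant and 0.984 to 4.95 in the wild type. No probe set was named here for ATM, so the genotype was not checked at its own transcript.

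AT5G23910, a gene for a motor protein of the kinesin type, was dimmer in the mutant. Its signals were 8.54, 7.84 and 10.9 in the atm mutant, against 42.9, 69.7 and 67.6 in the wild type. Every mutant value lay below every wild type value, and the lowest wild type value was that of replicate 1. The means were 9.10 ± 1.61 in the atm mutant and 60.1 ± 14.9 in the wild type (SD, n = 3 each), and the log2 difference was -2.70 (SE 0.31), or 6.52-fold lower. On the mutant arrays AT5G23910 stood at a percentile of 20.14 to 25.2, against 50.9 to 62.6 on the wild type arrays. It exceeded the 40th percentile on 0 mutant and 3 wild type arrays, so it entered the fit through the wild type alone. It is among the 31 probe sets that limma called lower in the mutant, which are 0.223% of those tested, and that call is what chose it. A fold change between signals as dim as these depends on how low values are treated: with the 40th percentile of each array added before the logarithm, the log2 difference was -1.29.

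**Figure D1:**
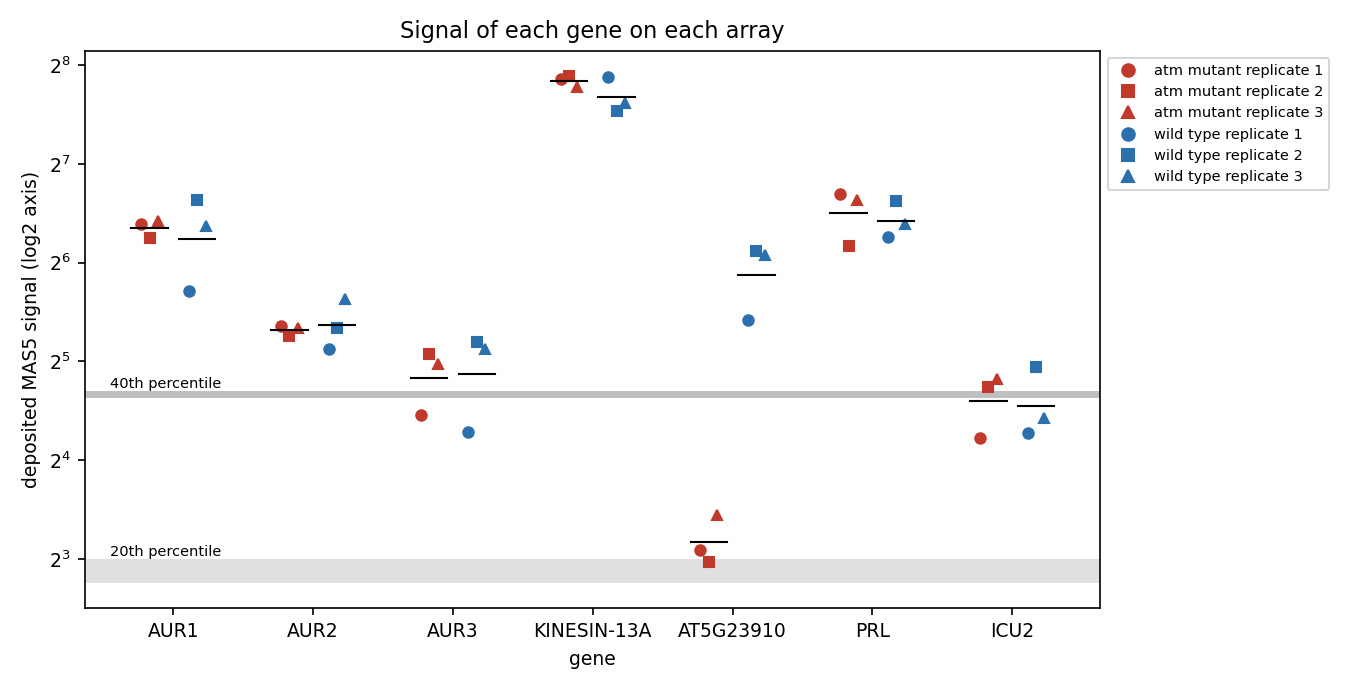
Deposited MAS5 signal (log2 axis) of the 7 genes on each array, with atm mutant arrays in red on the left of each pair and wild type arrays in blue on the right; black bars are geometric means (n = 3 each) and grey bands span the 20th and 40th percentiles of the 6 arrays. AT5G23910 lies at 7.84 to 10.9 in the mutant and at 42.9 to 69.7 in the wild type, while for each of the other 6 genes the genotypes overlap.

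The signals of the 3 Aurora kinases overlapped between the genotypes. AUR1 had 84.1, 75.9 and 85.9 in the atm mutant, against 52.3, 99.4 and 82.7 in the wild type. The mutant values fell inside the wild type range, which was wide because replicate 1 was low. The means were 82.0 ± 5.32 in the atm mutant and 78.1 ± 23.9 in the wild type (SD, n = 3 each), a log2 difference of 0.12 (SE 0.24).

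AUR2 had 41.05, 38.4 and 40.5 in the atm mutant, against 35.0, 40.5 and 49.6 in the wild type. All its mutant values again lay within the wild type range, and its log2 difference was -0.05 (SE 0.19). AUR3 had 21.9, 33.6 and 31.5 in the atm mutant, against 19.5, 36.7 and 35.0 in the wild type. In each genotype replicate 1 was the low array for AUR3, and the log2 difference was -0.04 (SE 0.33). The means of AUR2 were 39.99 ± 1.42 in the atm mutant and 41.7 ± 7.42 in the wild type, and those of AUR3 were 29.0 ± 6.21 in the atm mutant and 30.4 ± 9.45 in the wild type (SD, n = 3 each). AUR3 exceeded the 40th percentile on 2 arrays of each genotype, whereas AUR1 and AUR2 exceeded it on all 6. AUR1 and AUR2 are close relatives in sequence, and whether their probe sets share signal was not tested.

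KINESIN-13A encodes an internal-motor kinesin of the family that takes microtubules apart, and in Arabidopsis it is known from trichome branching and from the Golgi. Its signals were 231.9, 237.4 and 219.1 in the atm mutant, against 235.7, 185.2 and 196.1 in the wild type. The mutant values lay above wild type replicates 2 and 3 and on both sides of wild type replicate 1. The means were 229.4 ± 9.38 in the atm mutant and 205.7 ± 26.6 in the wild type (SD, n = 3 each). The log2 difference was 0.16 (SE 0.13), the only one of the 6 that exceeded the within-genotype SD of its gene, 0.135 for KINESIN-13A.

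The replication genes overlapped between the genotypes too. PRL had 103.9, 71.8 and 99.7 in the atm mutant, against 76.5, 98.9 and 83.7 in the wild type. The lowest and the highest of the 6 values were both from the mutant, and the log2 difference was 0.08 (SE 0.19). ICU2 had 18.7, 26.7 and 28.3 in the atm mutant, against 19.3, 30.8 and 21.5 in the wild type, with a log2 difference of 0.05 (SE 0.31). It exceeded the 40th percentile on 2 mutant arrays and 1 wild type array, the smallest number that the filter admits, so ICU2 is weakly measured. The means of PRL were 91.8 ± 17.4 in the atm mutant and 86.4 ± 11.4 in the wild type, and those of ICU2 were 24.6 ± 5.16 in the atm mutant and 23.9 ± 6.07 in the wild type (SD, n = 3 each).

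Set side by side, the log2 difference of AT5G23910 minus that of each other gene ran from -2.87, for KINESIN-13A, to -2.66, for AUR2. Among the 6 others, differences ran from -0.05 to 0.16 with a median of 0.06, 4 above and 2 below zero, and the median over all tested probe sets was 0.01. The genotypes overlapped in 6 of the 6, while over all probe sets tested the genotypes did not overlap in 8.66%. In 5 of the 6 the difference was smaller than the SD between arrays of a genotype. With SEs from 0.13 to 0.33, modest changes of these genes were not resolved by 3 arrays a genotype. Because the choice of the genes used this same contrast, the gap is a description of the 7 probe sets.

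The ratio of AT5G23910 to another gene on the same array removes any factor common to that array. For AUR1 the log2 ratio was -3.30, -3.27 and -2.98 in the atm mutant, against -0.29, -0.51 and -0.29 in the wild type. Wild type replicate 1, in which both genes were low, fell in with the other wild type arrays on this scale. For PRL the log2 ratio was -3.60, -3.19 and -3.19 in the atm mutant, against -0.83, -0.50 and -0.31 in the wild type. For KINESIN-13A it was -4.76, -4.92 and -4.33 in the atm mutant, against -2.46, -1.41 and -1.54 in the wild type, and here replicate 1 remained the lowest wild type array. Over all 6 denominators the mutant and wild type arrays were separated by a gap of 1.87 to 2.46 log2 units, narrowest with KINESIN-13A and widest with AUR1. All 6 ratios share AT5G23910, chosen for its difference in this contrast, and their denominators were chosen as not called. The separation therefore follows from the choice of genes, and the 6 ratios are a description, not separate pieces of evidence.

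**Figure D2:**
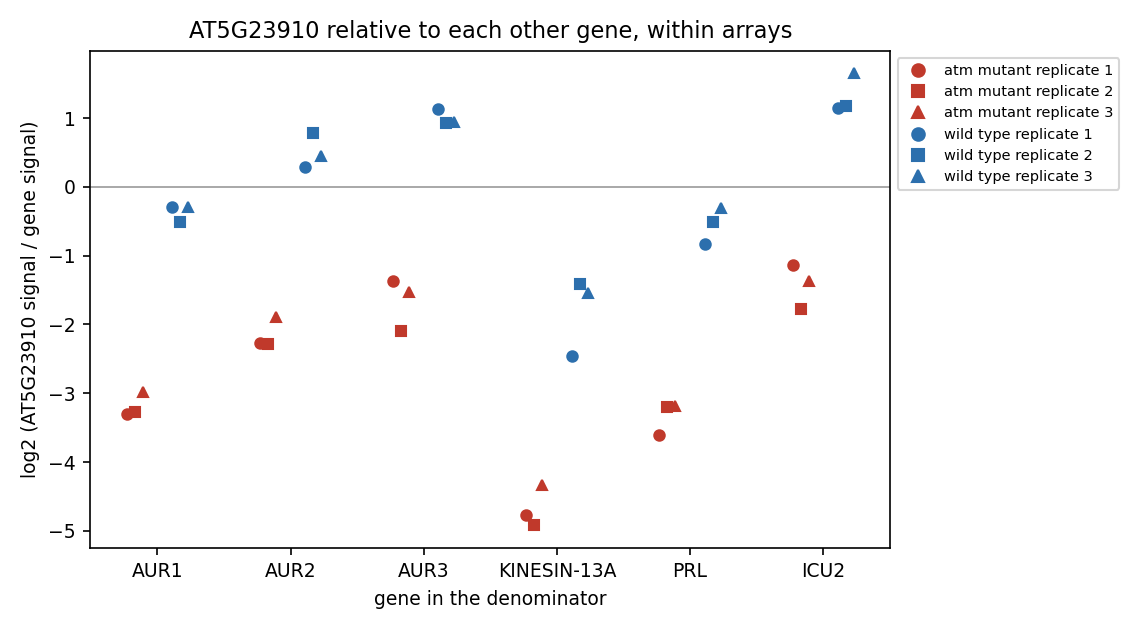
Log2 ratio of the AT5G23910 signal to the signal of each other gene on the same array, with atm mutant arrays in red on the left and wild type arrays in blue on the right of each pair; points are single arrays and heights should be compared only within a column. In each of the 6 columns all mutant ratios lie below all wild type ratios, with a gap of 1.87 to 2.46 log2 units. The columns share AT5G23910, which was chosen by this contrast, so the separation follows from the choice of genes.

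Leaving out single arrays moved the difference of AT5G23910 little. It ran from -2.93, without wild type replicate 1, to -2.58, without wild type replicate 2, and was -2.83 when wild type replicate 1 and atm mutant replicate 2 were both left out. For the others the same omissions moved small values across zero. Without both arrays AUR3 had a log2 difference of -0.45, AUR1 of -0.09, AUR2 of -0.14, KINESIN-13A of 0.24, PRL of 0.16 and ICU2 of -0.16. Over 16 alternatives KINESIN-13A stayed above zero in all, from 0.09 to 0.27, whereas AUR1 and PRL over 16, and AUR2, AUR3 and ICU2 over the 15 that admitted them, took both signs. Several alternatives, such as another filter or a replicate block, leave a difference unchanged by construction.

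**Figure D3:**
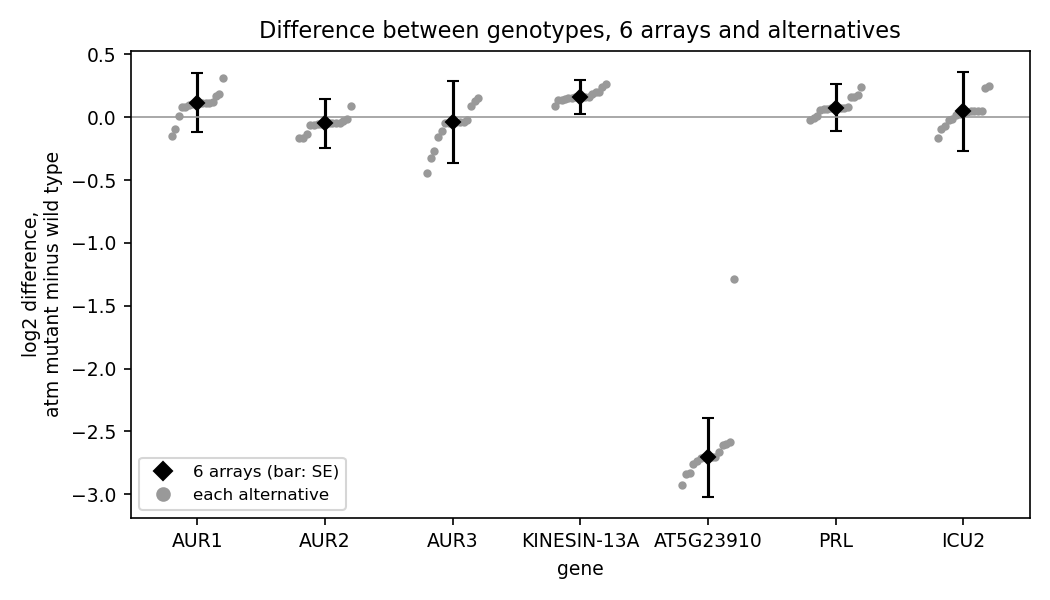
Log2 difference, atm mutant minus wild type, for the 7 genes: black diamonds are the values over 6 arrays with SE bars, and grey points are the alternatives sorted by size, 16 for AUR1, KINESIN-13A and PRL and 15 for the genes that a filter at the 60th percentile did not admit. AT5G23910 lies between -2.93 and -2.58 except for -1.29 with the pseudocount, and all values of the other genes lie between -0.45 and 0.31.

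Kinesins are a large family in Arabidopsis, and the rest of it gave the nearest comparison for AT5G23910. A list of 57 other kinesin loci, written from general knowledge of the family, had 37 named on the array, of which 18 passed the filter. Limma called 0 of 18 at an adjusted p under 0.05, where 0.223% of all tested probe sets were called, so that 0 is near the background. Of the 18, 3 had an unadjusted p under 0.05, 1 lower and 2 higher, where 3.36% of all tested probe sets passed this mark, 2.16% lower and 1.2% higher. With array weights limma also called 0 of 18 (0.525% of all probe sets), and on the 4 arrays left without the pair that stood apart it called 0 of 18 (1.68%). Their differences ran from -0.44 to 0.52. AT5G23910 lay outside that range, but it was chosen for its low value in this same contrast, so this is a description. Without the filter the 37 named kinesins, dim ones included, ran from -2.27 to 1.73. The median was 0.11 and 15 of 18 were above zero, against a median of 0.01 and 51.9% above zero over all probe sets tested. The 20 loci without a name here may be measured by unnamed probe sets.

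The kinesins with the smallest p were AT3G45850 and KICP-02 (AT3G50240). AT3G45850 had 136.0, 121.4 and 149.3 in the atm mutant, against 89.1, 91.6 and 102.7 in the wild type. Every mutant value was above every wild type value, and the log2 difference was 0.52 (SE 0.14), with a limma adjusted p of 0.758. KICP-02 had 78.7, 112.4 and 83.1 in the atm mutant, against 132.2, 118.8 and 116.4 in the wild type. Its genotypes were separated the other way, with a log2 difference of -0.44 (SE 0.17, limma adjusted p = 0.9996). In 4 of 18 the genotypes did not overlap, 1 lower and 3 higher in the mutant, where over all probe sets 4.85% were separated lower and 3.81% higher. The other 2 were AT5G02370, with a log2 difference of 0.50 (SE 0.20), and AT5G27950, with 0.32 (SE 0.16), both named after their values had been seen and neither past the adjusted threshold.

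**Figure D4:**
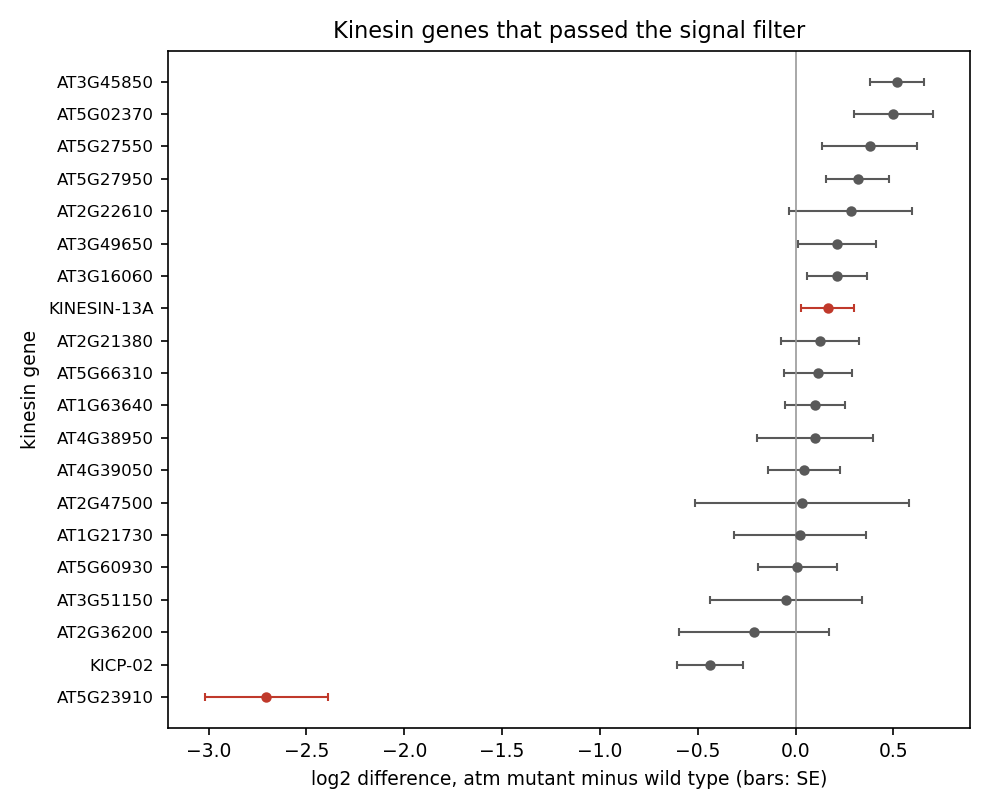
Log2 difference, atm mutant minus wild type, with SE bars for the 18 kinesin genes of the list that passed the filter (grey) and for KINESIN-13A and AT5G23910 (red), sorted by value (n = 3 arrays a genotype). The grey points lie between -0.44 and 0.52, KINESIN-13A among them at 0.16, and AT5G23910 apart at -2.70.

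The other 19 named kinesins were too dim for the filter, with signals between 0.322 and 32.4. In 2 of the 19 the genotypes did not overlap, near the share of 8.66% over all tested probe sets, which are brighter. AT4G24170, named after its values were seen, was the one of these with the genotypes separated in the direction of AT5G23910, with 1.64, 1.92 and 1.027 in the atm mutant, against 13.3, 5.67 and 4.80 in the wild type. All of its mutant values and 2 of its 3 wild type values were below the 20th percentile of their arrays, so no fold change is given. AT5G42490 was separated the other way, below that percentile on every array.

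Few further cell cycle genes could be followed by name. Of 25 loci of replication licensing and the helicase 2 were named and 1 tested, of 30 loci of replication polymerases and fork factors 3 were named and 3 tested, of 55 loci of G2 and mitosis 6 were named and 2 tested, and of 17 loci of G1 and S entry 0 were named. Limma called 0 of these 6 tested genes, against 0.223% of all probe sets, and 0 had an unadjusted p under 0.05, against 3.36%, so neither count sets them apart from the background. Among the replication genes, POLD3, a subunit of DNA polymerase delta, had 36.1, 27.4 and 40.9 in the atm mutant, against 25.0, 29.5 and 23.7 in the wild type, a log2 difference of 0.40 (SE 0.25). POLA3, a subunit of the polymerase alpha and primase complex to which ICU2 belongs, had a log2 difference of 0.20 (SE 0.22), and PSF2, a subunit of the GINS complex that joins the helicase of PRL, had -0.06 (SE 0.33). For each of these 3 the genotypes overlapped.

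Of the mitotic genes, ATSMC2, a condensin subunit that compacts chromosomes, had 27.4, 21.5 and 30.6 in the atm mutant, against 12.8, 27.6 and 26.8 in the wild type. Its lowest wild type value was that of replicate 1, as for AUR1 and AUR3, and its log2 difference was 0.31 (SE 0.37). BUB3.1, a spindle checkpoint protein, had 50.6, 33.8 and 41.5 in the atm mutant, against 32.4, 50.6 and 48.3 in the wild type, with a log2 difference of -0.05 (SE 0.25). For both ATSMC2 and BUB3.1 the arrays that stood apart were the low ones of their genotypes.

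Inside the genotypes, wild type replicate 1 was the low array for most of the 7 genes. Wild type replicate 1 gave the lowest wild type value for 6 of the 7 genes, all but KINESIN-13A, and atm mutant replicate 2 the lowest mutant value for 4, which were AUR1, AUR2, AT5G23910 and PRL. Over all tested probe sets wild type replicate 1 was lowest in 41.03% and atm mutant replicate 2 in 40.4%, so the count for the mutant array is near its background. Over the 24 tested genes of the kinesin, replication and cell cycle lists each of these arrays was lowest in 10, or 41.7%. Relative to the mean of the other wild type arrays, the log2 deviation of replicate 1 was -0.88 for AUR3, -0.79 for AUR1, -0.68 for AT5G23910, -0.41 for ICU2, -0.36 for AUR2 and -0.25 for PRL. For KINESIN-13A it was 0.31, so this gene was high where the others were low. For the tested kinesins of the list the median deviation on that array was -0.04, and 6 of 18 had their lowest wild type value on it. Atm mutant replicate 2 was likewise the lowest mutant array for 6 of 18.

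**Figure D5:**
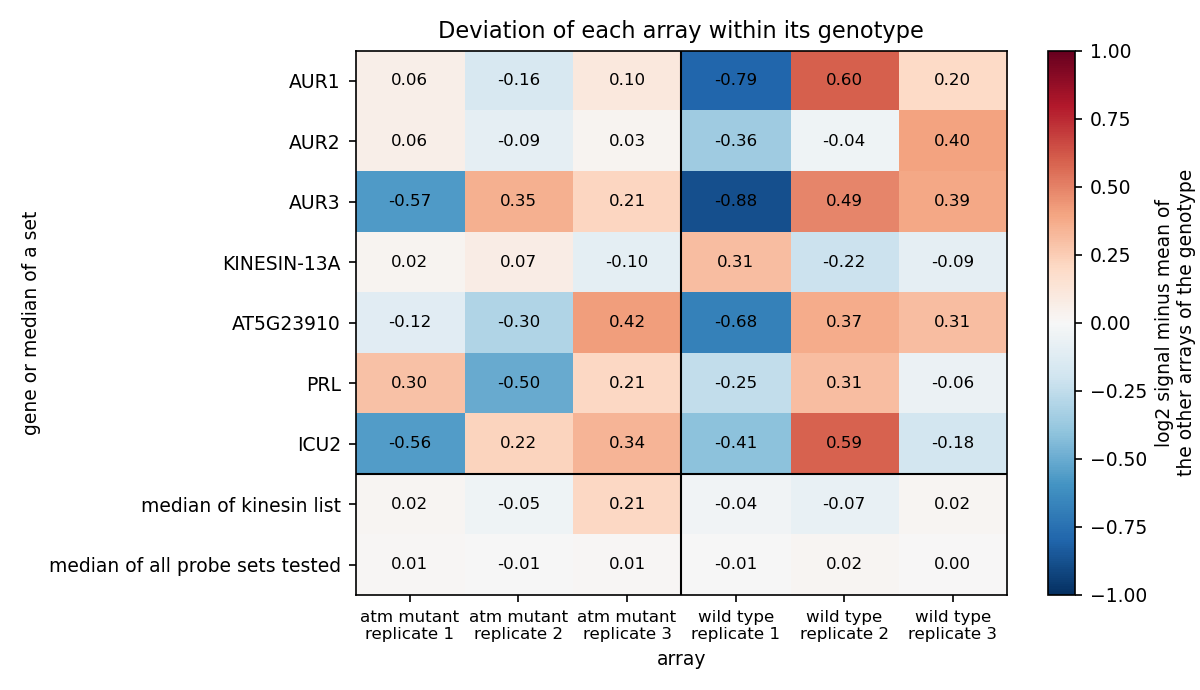
Log2 signal of each array minus the mean of the other arrays of its genotype, for the 7 genes, the median of the 18 tested kinesins of the list and the median of all tested probe sets, with atm mutant arrays on the left and wild type arrays on the right of the black line. Wild type replicate 1 is lower for 6 genes, down to -0.88 for AUR3, and higher for KINESIN-13A at 0.31.

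The SD within genotypes was set against that of the 500 tested probe sets nearest in mean level. AT5G23910 had an SD of 0.33 log2 units. Its comparison, with 450 neighbours, is not read here, since it lay at its mean level in neither genotype. AUR1 was more variable than most, with an SD of 0.34 against a median of 0.22, above 83% of its neighbours, and AUR3 had 0.43 against 0.34. AUR2 and KINESIN-13A were steadier than the median of their neighbours, with 0.18 against 0.29 and 0.14 against 0.19, and PRL had 0.25 against 0.21. ICU2 had 0.34 against 0.46. Its means, 24.6 in the atm mutant and 23.9 in the wild type, lay below the 40th percentile of the arrays (24.7 to 26.0). At that level the filter itself favours probe sets that vary between arrays, so the comparison of ICU2 cannot show steadiness.

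The genes whose log2 values over the 6 arrays were most like those of AT5G23910, by Pearson correlation among 7380 other named genes, were AT5G48020 (r = 0.994), AT2G45460 (0.989), AT1G76810 (0.982), AT3G42860 (0.979) and SAY1 (0.979). All 5 had lower means in the mutant, which follows from the choice of AT5G23910 by its difference between the genotypes. The values are a description over 6 arrays of 2 genotypes. With so few arrays, the best of 7380 genes had a high r for every member. AT5G48020, of the oxygenase superfamily that uses 2-oxoglutarate and iron, had 146.9, 157.2 and 162.9 in the atm mutant, against 736.1, 982.0 and 974.0 in the wild type. It shared with AT5G23910 a low wild type replicate 1. AT1G76810 had a log2 difference of only -0.21, with 80.2, 80.3 and 80.6 in the atm mutant, against 92.0, 95.5 and 91.7 in the wild type, so a high r here went with a small difference.

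The 3 genes nearest to each of the other members included none of these 5. Nearest to AUR1 were AT3G44850 (r = 0.989), AT2G23940 (0.989) and AT1G77750 (0.987), and nearest to AUR2 were AT1G70770 (0.992), AT2G25910 (0.981) and AT2G42710 (0.972). AUR3 was nearest to AT1G16670 (0.997), AT5G14730 (0.990) and AT5G05520 (0.984). KINESIN-13A was nearest to TCP15 (0.985), which encodes a TCP transcription factor known from the control of cell proliferation in leaves, to AT1G49750 (0.985) and to AT1G35550 (0.982). PRL was nearest to AT4G38250 (0.991), AT1G68330 (0.984) and AT3G08630 (0.982), and ICU2 to AT2G40935 (0.987), AT5G19480 (0.976) and AT1G16080 (0.975). The 3 genes nearest to KINESIN-13A had log2 differences above zero like its own, of 0.26 for TCP15, 0.30 for AT1G49750 and 0.37 for AT1G35550. The likeness takes in differences between genotypes as well as between arrays of a genotype.

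The neighbours of AT5G23910 in the TAIR10.1 gene order were looked at after the values had been seen. Of the 2 protein-coding genes on either side, AT5G23920 alone was named on the array. It lies next to AT5G23910 and had 183.6, 134.3 and 200.1 in the atm mutant, against 205.5, 197.9 and 202.3 in the wild type. Its low value was that of atm mutant replicate 2, and its log2 difference was -0.25 (SE 0.17, limma adjusted p = 0.9996).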

How the data were processed

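Per the submitters' processing notes the authors made the deposited values, 1 signal intensity per probe set and array, with MAS5 in GCOS; scaling target, filters and detection calls are not given in the sources used here. The intensities were taken to log2 with no pseudocount. Of 22810 probe sets the 64 controls were left out, and 13895 were tested, namely those that exceeded the 40th percentile on 3 or more arrays. The genotypes were compared (atm mutant minus wild type) by limma 3.58.1 with R 4.3.3, using lmFit and eBayes with an intensity trend, two-sided p-values and Benjamini-Hochberg adjustment over all tested probe sets at a threshold of 0.05. An exact permutation of 3 arrays against 3 cannot go below p = 0.1. The fit was tested on simulated data, with changes placed only in brighter probe sets and noise drawn independently for each array. That test does not cover genes as dim as AT5G23910 or ICU2, or arrays that deviate together. The precision is limited by the number of arrays.

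Names came from the platform annotation, updated by gene ID through RefSeq's TAIR10.1 table; 13513 probe sets had 1 gene, 503 several and 8730 were unnamed here. The same table's gene order gave the neighbours of AT5G23910; no sequences were used, and a planned search for promoter motifs was not run. A gene with several probe sets was represented by the brightest. The text names the 7 genes, from each list up to 4 called genes or else the 2 with the smallest p, and the 5 genes most like AT5G23910 and 3 most like each other member; exceptions are marked. The members and lists were chosen with earlier results of these data known. Deviations of same-numbered arrays correlated at -0.461, -0.460 and 0.379, and the numbers were not taken to pair the samples. The alternatives were another scaling (quantile or median), another filter (none or the 60th percentile), a pseudocount, a floor at the 20th percentile, no intensity trend, array weights, a replicate block, and the omission of each array or of both that stood apart.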

Additional observations from a re-analysis of the deposited data

How the results depend on the processing

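With the 40th percentile as pseudocount the log2 difference of AT5G23910 was -1.29, and set beside the other genes it was -1.37 for AUR1, -1.26 for AUR2, -1.27 for AUR3, -1.44 for KINESIN-13A, -1.36 for PRL and -1.32 for ICU2. This follows from the construction of the pseudocount, which draws dim signals together. In the other 14 alternatives that gave them each of these values moved by less than the spread between replicates. Several of these alternatives could not move them. The difference of AT5G23910 is the same by construction without the filter, without the intensity trend and with the replicate block. With the floor it was also unchanged, because its values all lay above the 20th percentile of their arrays, on the mutant arrays only a little. Median centring cannot change a gap between genes. Without single arrays AT5G23910 had -2.93 to -2.58. The 31 calls over all probe sets became 73 with array weights, 11 with the replicate number as a block, 233 without the 2 arrays that stood apart, and 13 to 36 with 1 array left out; 13 was the count without wild type replicate 2 and also without wild type replicate 3. The cause was not tested. The replicate block left the differences as they were, and AT5G23910 at -2.70. No kinesin or other listed cell cycle gene was called under any of the alternatives that tested it (the background with array weights was 0.525% and on the 4 arrays 1.68%); the smallest adjusted p of a kinesin was 0.0875, for AT3G45850 on the 4 arrays. The kinesin median stayed between 0.08 and 0.18, with 1 to 5 genes at an unadjusted p under 0.05. In the alternatives that tested 18 kinesins, the number above zero ran from 12, without wild type replicate 2, to 15. It was 13 with array weights, without atm mutant replicate 2 and on the 4 arrays. A filter at the 60th percentile left 6 kinesins and did not admit AT5G23910, AUR2, AUR3, ICU2 or 3 of the small lists, so it gave no value for these. Each of the 7 genes has 1 probe set, so no other probe set could be tried. Dim signal limits what can be said of AT5G23910 in the mutant, of ICU2 and of AUR3.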
